A study of Mus musculus with 8 samples.

Results

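The Ccl chemokine cluster on mouse chromosome 11 was described here as the 10 genes Ccl2, Ccl3, Ccl4, Ccl5, Ccl6, Ccl7, Ccl8, Ccl9, Ccl11 and Ccl12, which were picked by name from 55413 annotated genes. For each gene, a window reaching 1 kb to both sides of every annotated transcript start (start window, 2001 bp) and the gene body were set against the regions enriched for histone H3 methylated once, doubly or triply at lysine 9 (H3K9me1, H3K9me2, H3K9me3). The same was done for the whole cluster with 200 kb added on both sides. The regions came from chromatin immunoprecipitation sequencing (ChIP-seq) of mouse embryonic fibroblasts (MEFs), the connective tissue cells grown from mouse embryos. All 8 samples were of wild-type genotype, with no treatment named in the labels, and comprised 2 samples each of input DNA, H3K9me1, H3K9me2 and H3K9me3. According to the study's methods, the wild-type cells were a single-cell clone of Eset1-conditional MEFs (E1c) chosen for high Cre activity, and the samples of a group were biological replicates. All groups therefore share the conditional Eset1 alleles and a clonal origin.

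CC chemokines are small secreted proteins that attract leukocytes along a concentration gradient through G protein-coupled receptors. The chromosome 11 genes arose by local gene duplication, and fibroblasts, macrophages and lymphocytes switch many of them on during infection or inflammation. H3K9me2 and H3K9me3 are marks of silenced chromatin and heterochromatin, whereas H3K9me1 is known from both heterochromatin and transcribed genes.

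There was 1 list of regions per mark and no value per replicate, so each list describes 1 map and no spread between the replicates could be given. The lists held 42704 regions for H3K9me1, 29119 for H3K9me2 and 27108 for H3K9me3, all built from bins of 750 bp, and they do not give the number of reads in a region. For each mark this is slightly below the number of regions that the study reports, and the reason for the difference is not known here. A gene without a region is a gene at which no call was made, which does not measure the absence of the mark. The lists hold no expression values, so the fibroblast identity of the cells was not checked against marker genes, and nothing below says whether a Ccl gene was transcribed.

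The 10 genes fell into 2 sub-clusters of 5 genes, 1409 kb apart (coordinates are GRCm38). The first held the monocyte chemoattractants Ccl2 (chr11:82035571-82037453), Ccl7 (chr11:82045712-82047525), Ccl12 (chr11:82101845-82103400) and Ccl8 (chr11:82115185-82116799) and the eosinophil attractant eotaxin Ccl11 (chr11:82057823-82062955), all on the plus strand. The second held Ccl5 (RANTES, an attractant of T cells and monocytes, chr11:83525778-83530518), the myeloid chemokines Ccl9 (chr11:83572919-83578636) and Ccl6 (chr11:83587882-83593087) and the macrophage inflammatory proteins Ccl3 (chr11:83647844-83649355) and Ccl4 (chr11:83662584-83664683). Of these, Ccl4 alone lay on the plus strand. The genes were short, from 1.51 kb for Ccl3 to 5.72 kb for Ccl9, with a median of 1.99 kb against 13.8 kb for the 1639 protein-coding genes of chromosome 11.

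H3K9me1 met the start windows of 2 of the 10 genes, Ccl5 and Ccl6, and H3K9me2 and H3K9me3 met 0 of 10. Gene bodies gave the same result, with H3K9me1 in Ccl5 and Ccl6 and neither of the other marks in any of the 10 genes. The start windows of all annotated genes were met at 21.4% for H3K9me1, 11.5% for H3K9me2 and 12% for H3K9me3. Over the 3011 annotated genes of chromosome 11 these shares were 31.9%, 8.4% and 7.51%, and over its protein-coding genes 37.3%, 8.3% and 6.22%. H3K9me1 had regions on 20 chromosomes and H3K9me2 on 19, whereas all annotated genes were counted over 21. The shares of all genes thus include chromosomes without a region, and chromosome 11 is the closer background. The share of marked Ccl starts for H3K9me1, 20%, was thus near that of all genes and below that of chromosome 11. With 10 genes, the gap to chromosome 11 rests on very few genes and is no result about them. The Ccl genes had 1 to 3 annotated starts each, and the number of starts was not matched. For H3K9me2 and H3K9me3, the background amounts to about 1 gene of 10, so the count of 0 is close to it and is no result about these genes.

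**Figure D1:**
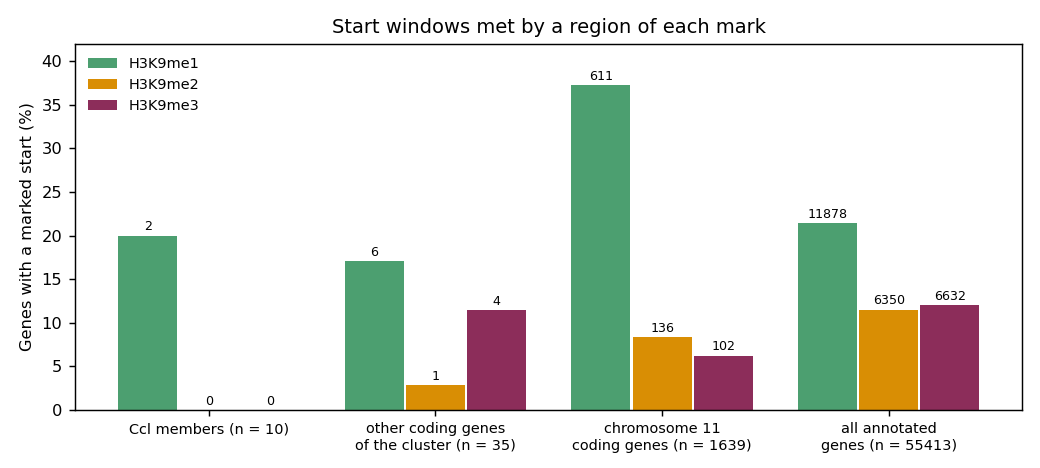
Share of genes (y axis, percent) whose start window is met by a region of H3K9me1 (green), H3K9me2 (orange) or H3K9me3 (purple), for the 10 Ccl genes, the other 35 protein-coding genes of the cluster with flanks, the 1639 protein-coding genes of chromosome 11 and all 55413 annotated genes. The number above each bar is the count of genes met, which is 2, 0 and 0 for the Ccl genes.

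For gene bodies, all annotated genes were met at 26.7% (H3K9me1), 14.6% (H3K9me2) and 15.2% (H3K9me3). Chromosome 11 genes were met at 45.4%, 12% and 9.66%, and its protein-coding genes at 59.5%, 13.5% and 9.33%. Longer genes offer more bases to a region, and the Ccl genes are among the shorter ones, so the body count is set beside these shares without a comparison of length-matched genes. Of the 31.3 kb of Ccl gene bodies, H3K9me1 covered 4.86 kb or 15.5%. All of it lay in the Ccl5 to Ccl4 sub-cluster, where it amounted to 25.2% of 19.3 kb of gene body, and none in the 12 kb of gene body from Ccl2 to Ccl8.

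At Ccl5 (ENSMUSG00000035042.2), 1 H3K9me1 region of 3 kb or 4 bins (chr11:83528251-83531250) lay across the transcription start. It held 732 bp upstream of the gene, 673 bp of exon and 1595 bp of intron, and covered 86.9% of the start window and 47.8% of the gene body. The region thus took in the 5′ part of the gene and left the 3′ part uncalled. Its G+C share was 47% and 18.3% of its bases were soft-masked repeats.

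Ccl6 (ENSMUSG00000018927.3) had 2 H3K9me1 regions. The one at the 5′ end of the gene measured 3 kb (chr11:83592751-83595750), lay mostly upstream of the gene with 2663 bp there, and reached 222 bp of exon and 115 bp of intron. The other measured 2.25 kb (chr11:83588251-83590500) and lay wholly within the 3′ part of the gene, over 1204 bp of exon and 1046 bp of intron. Together they covered 49.7% of the gene body. Over the 3 annotated starts of Ccl6, the highest cover of a start window was 81.3%. This came from the region of 2.25 kb, at a start inside the gene, and the region of 3 kb covered less of its window. A long non-coding gene, E230016K23Rik, spans Ccl6, so a region here cannot be given to one of the genes alone. The widths were ordinary for the chromosome, where 48.9% of the 3850 H3K9me1 regions were 3 kb or narrower.

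Ccl3 was the nearest gene outside the limit of 1 kb. Its closest H3K9me1 region (chr11:83650501-83651250) lay upstream, 1.15 kb from the start and 146 bp beyond the window. It was a single bin of 0.75 kb, the narrowest width possible, which 10.3% of the H3K9me1 regions of chromosome 11 share.

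**Figure D2:**
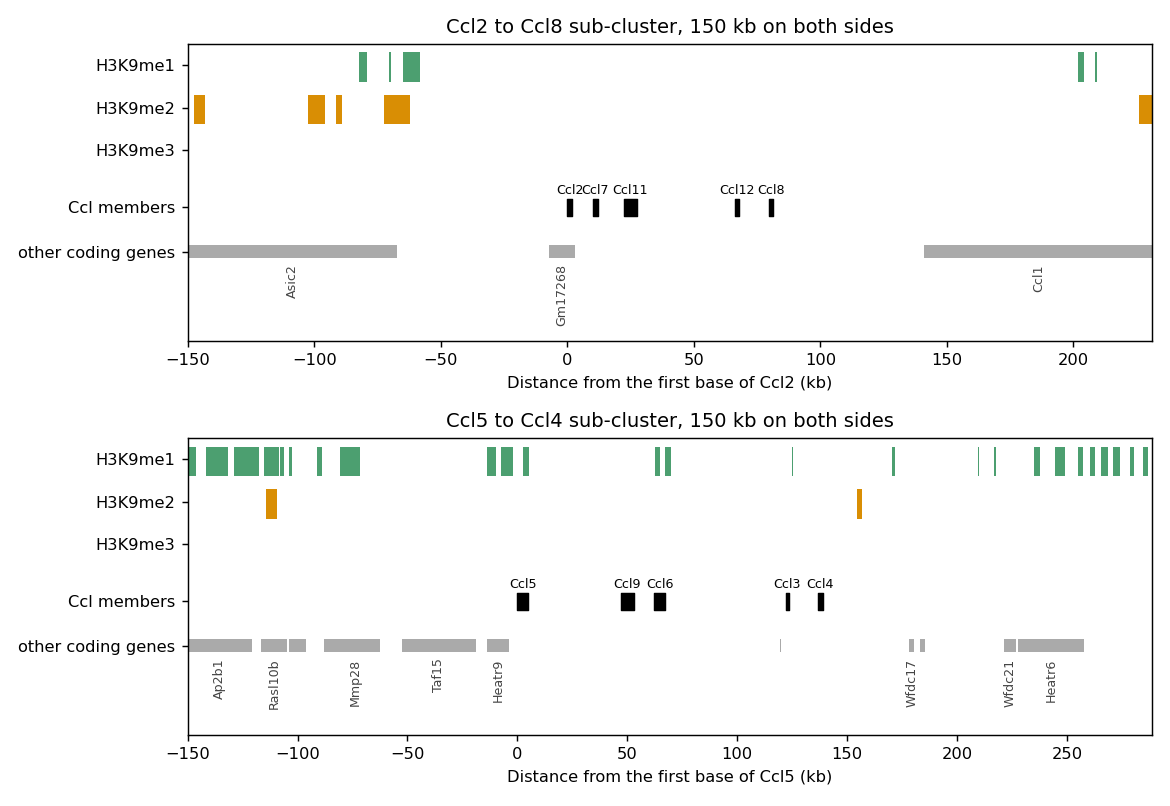
Map of each sub-cluster with 150 kb on both sides (x axis, kb from the first base of Ccl2 or Ccl5). Coloured blocks are H3K9me1, H3K9me2 and H3K9me3 regions, black blocks the Ccl genes and grey blocks other protein-coding genes, with names given to those with room. The stretch from Ccl2 to Ccl8 has no region, and the Ccl5 to Ccl4 stretch has 4 H3K9me1 regions and no other.

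The promoter sequences show how the marked Ccl6 start compares with unmarked ones. RefSeq (GRCm38.p6) promoters were matched for 5 of the 10 genes, Ccl12, Ccl8, Ccl9, Ccl6 and Ccl3. Those of Ccl2, Ccl7, Ccl11, Ccl5 and Ccl4 are not shown. The 250 bases before the start are given for Ccl6, which lies inside the H3K9me1 region of 3 kb (chr11:83593088-83593337, minus strand), for its unmarked neighbour Ccl9 (chr11:83578637-83578886, minus strand), and for Ccl12 (chr11:82101595-82101844, plus strand) and Ccl8 (chr11:82114935-82115184, plus strand) in the stretch without regions. Capitals mark matches to the TATA box TATAAA, the AP-1 motif TGANTCA and the NF-kB consensus, each searched on both strands.
Ccl6: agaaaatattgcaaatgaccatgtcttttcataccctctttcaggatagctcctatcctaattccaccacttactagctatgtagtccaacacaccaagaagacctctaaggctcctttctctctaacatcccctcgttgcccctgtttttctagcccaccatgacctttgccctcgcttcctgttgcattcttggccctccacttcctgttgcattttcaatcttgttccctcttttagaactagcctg
Ccl9: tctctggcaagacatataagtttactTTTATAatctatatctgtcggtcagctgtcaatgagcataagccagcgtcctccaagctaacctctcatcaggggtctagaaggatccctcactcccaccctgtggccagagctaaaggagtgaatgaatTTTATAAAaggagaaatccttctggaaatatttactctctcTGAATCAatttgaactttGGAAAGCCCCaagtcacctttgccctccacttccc
Ccl12: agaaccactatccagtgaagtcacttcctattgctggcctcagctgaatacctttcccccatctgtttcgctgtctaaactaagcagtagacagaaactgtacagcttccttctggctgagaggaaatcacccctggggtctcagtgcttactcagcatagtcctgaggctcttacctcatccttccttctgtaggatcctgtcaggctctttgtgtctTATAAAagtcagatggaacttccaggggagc
Ccl8: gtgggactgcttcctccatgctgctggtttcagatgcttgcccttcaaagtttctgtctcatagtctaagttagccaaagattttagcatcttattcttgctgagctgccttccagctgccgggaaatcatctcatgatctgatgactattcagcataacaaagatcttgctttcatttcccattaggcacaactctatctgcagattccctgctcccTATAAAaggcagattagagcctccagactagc

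The letters of the TATA box, a core promoter motif, were found in 3 of the 5 promoters, against 12.4% of 32851 RefSeq promoters of the same length. In Ccl12 they lay 31 to 26 bases before the start and in Ccl8 32 to 27 bases. Ccl9 held 3 matches farther upstream, 1 at 224 to 219 bases and an overlapping pair on opposite strands at 94 to 89 and 92 to 87 bases. The AP-1 and NF-kB motifs, named for factors of the inflammatory response, were each found in 1 of the 5 promoters, both in Ccl9, against 6.75% and 7.25% of all promoters. The AP-1 search allowed any base in the middle position, and the match in Ccl9 was TGAATCA. The promoters of Ccl6 and Ccl3 held no match to these motifs in this window. A match is a description of the letters and no measured binding site.

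All 10 starts were poor in CpG, the dinucleotide that is dense at the promoters of housekeeping genes. The 2 kb around the 5′ end held 9 (Ccl6) to 22 (Ccl3) CpG, with a median of 14.5 against 70 for protein-coding genes of chromosome 11. The G+C share ran from 42.1% to 47.7%, below the chromosome's median of 52.6%. The 8 unmarked genes had 11 (Ccl7) to 22 CpG, a range that took in Ccl5 with 16, whereas Ccl6 lay below it with 9. The G+C share of Ccl6, 42.1%, was likewise below the lowest of the unmarked genes, 42.7% at Ccl7. Of the 283 protein-coding genes of chromosome 11 with no more CpG than Ccl3, 35% had an H3K9me1-marked start, against 37.8% of the other 1356, so H3K9me1 calls were about as frequent at CpG-poor as at other starts. Repeats covered 2.75% (Ccl8) to 29.2% (Ccl9) of the start windows, with a median of 13.7% against 13.3% on the chromosome.

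The distance from each start to the nearest region separated the sub-clusters for H3K9me1. From Ccl2 it was 58.3 kb, from Ccl7 68.5 kb, from Ccl11 80.6 kb, from Ccl12 125 kb and from Ccl8 122 kb. In the second sub-cluster it was 0 for Ccl5 and Ccl6, 1.15 kb for Ccl3, 9.62 kb for Ccl9 and 11.3 kb for Ccl4. Every gene from Ccl2 to Ccl8 was therefore farther from H3K9me1 than every gene from Ccl5 to Ccl4. Genes of a sub-cluster are neighbours that share the same nearest regions, so these are not independent values. The median over the 10 genes was 34.8 kb, against 4.92 kb for protein-coding genes of chromosome 11.

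H3K9me2 was nearest to Ccl4, at 17.9 kb downstream, followed by Ccl3 at 31.1 kb, and farthest from Ccl8, at 142 kb. Its median distance of 85.9 kb was below the chromosome's 108 kb. H3K9me3 lay farthest of the marks from each of the 10 genes, from 190 kb at Ccl8 to 444 kb at Ccl4, with a median of 286 kb against 142 kb.

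**Figure D3:**
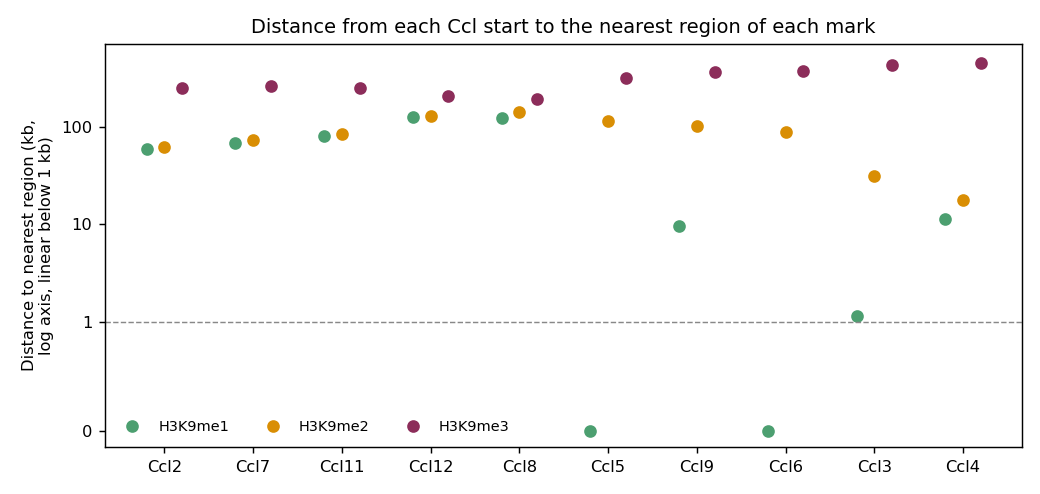
Distance in kb (y axis, logarithmic above 1 kb and linear below) from the start of each Ccl gene, in chromosome order (x axis), to the nearest region of H3K9me1 (green), H3K9me2 (orange) and H3K9me3 (purple). The dashed line is the 1 kb limit of the start window, and the points of Ccl5 and Ccl6 sit at 0 for H3K9me1.

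Ccl2, Ccl7, Ccl11, Ccl12 and Ccl8 all lay in a single stretch of 260.2 kb with no region of any mark (chr11:81977251-82237500), bounded by H3K9me1 on both sides. The chromosome held 33 longer such stretches, and its median stretch was 6 kb. The region before it measured 6.75 kb (chr11:81970501-81977250) and overlapped an H3K9me2 region of 10.5 kb (chr11:81963001-81973500). In the second sub-cluster the unmarked stretches were shorter, with 57 kb around Ccl9, 54.75 kb around Ccl3 and 29.25 kb around Ccl4. The chromosome held 293, 307 and 675 longer ones, respectively.

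The cluster with flanks (chr11:81835571-83864683, 2029 kb) was covered to 7.27% by H3K9me1 (47 regions), 3.7% by H3K9me2 (15 regions) and 12.3% by H3K9me3 (13 regions). The shares of the whole chromosome were 16.9%, 6.24% and 8.88%. This window hides unlike pieces. The 249 kb of H3K9me3 lay entirely between the sub-clusters, which have 0 bases of H3K9me3 in either. From Ccl2 to Ccl8 (81.2 kb) no mark was called, and from Ccl5 to Ccl4 (139 kb) H3K9me1 covered 6.48% and the other marks 0. The 200 kb before Ccl5 were covered to 40.1% by H3K9me1 and the 200 kb after Ccl4 to 16.3%, against 5.62% before Ccl2 and 1.88% after Ccl8. H3K9me2 reached its highest share, 17.2%, in the 200 kb before Ccl2. Once the middle was left out and each sub-cluster was taken with its own flanks, H3K9me3 went from the highest share of the marks to the lowest, with 13.4% for H3K9me1, 4.83% for H3K9me2 and 1.16% for H3K9me3.

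**Figure D4:**
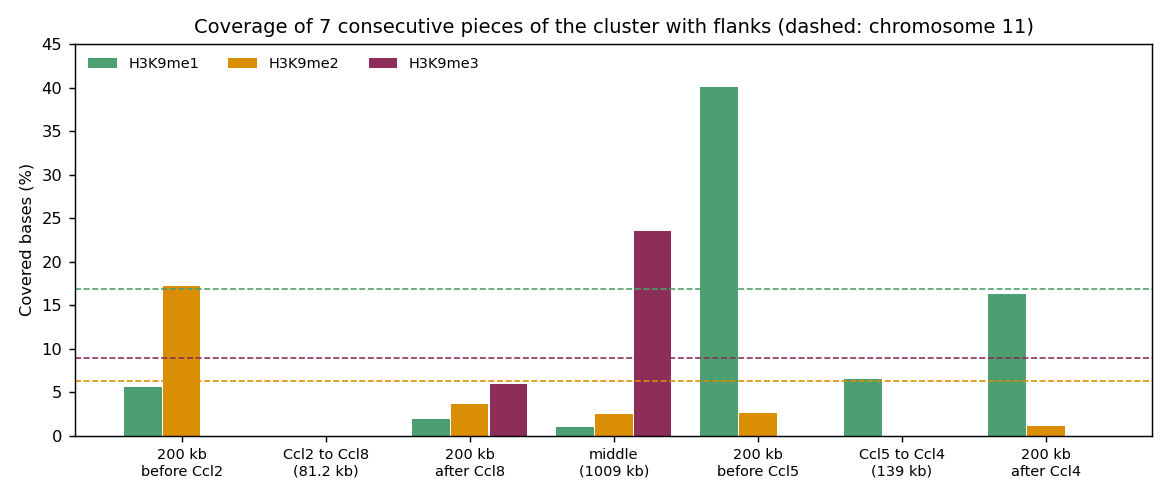
Share of bases (y axis, percent) covered by H3K9me1 (green), H3K9me2 (orange) and H3K9me3 (purple) in 7 consecutive pieces of the cluster with flanks, in chromosome order (x axis). Dashed lines give the share of all chromosome 11 for each mark, and the piece with the highest H3K9me1 share, 40.1%, is the one before Ccl5.

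The widest H3K9me3 region of the window (chr11:82326001-82422750, 96.75 kb) lay between the sub-clusters. It ran from upstream of Tmem132e, a membrane protein gene, into the gene. A further pair of 30 kb followed, one over the 3′ end of Tmem132e (chr11:82431001-82461000) and one past the gene (chr11:82512001-82542000). The widest H3K9me1 regions, a pair of 11.25 kb and one of 9.75 kb, lay over Ap2b1, a clathrin adaptor subunit gene ahead of Ccl5. The widest H3K9me2 regions, of 10.5, 7.5 and 6.75 kb, met Asic2, an ion channel gene ahead of Ccl2. The one of 10.5 kb ran past the 5′ end of the gene at 81968457. A further H3K9me2 region of 6.75 kb lay inside H3K9me3 (chr11:82314751-82321500).

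**Figure D5:**
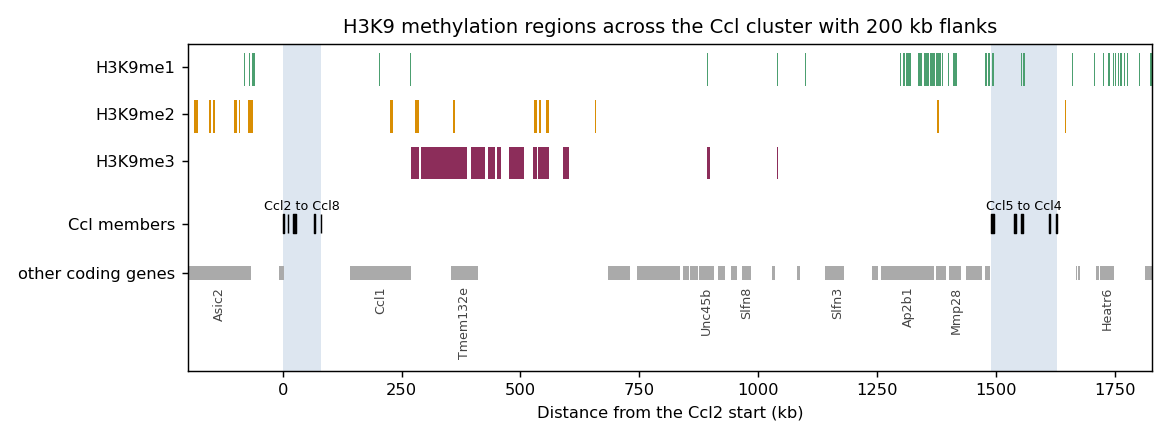
Regions of the 3 marks along the cluster with 200 kb flanks (x axis, kb from the Ccl2 start), above the Ccl genes (black) and other protein-coding genes (grey, some of them named). Shaded bands are the sub-clusters, and the H3K9me3 blocks sit between them.

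Of the other 35 protein-coding genes of the window, 6 had a start met by H3K9me1, 1 by H3K9me2 and 4 by H3K9me3 (17.1%, 2.86% and 11.4%). None had all 3 marks. Asic2 carried H3K9me2 and H3K9me3, and Ccl1 and Unc45b, a myosin chaperone gene, carried H3K9me1 and H3K9me3. At the 5′ end of the gene alone, Asic2 kept H3K9me2 only and Unc45b neither mark, so the other calls came from further annotated starts. The Asic2 start with H3K9me3 lies outside the window, which has no H3K9me3 in the 200 kb before Ccl2. Next to the members, Gm17268 overlaps Ccl2 on the opposite strand and was unmarked at start and body. On the near side of Ccl5, Heatr9 was met by H3K9me1 at its start and over 78.3% of its body, and Wfdc17, the next gene after Ccl4, was unmarked.

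Ccl1, a CC chemokine gene outside the 10 and the next coding gene after Ccl8, shows how a call can hang on the annotation. Its protein-coding transcripts start at 82179812, where no mark was within 57.7 kb. The calls of H3K9me1 and H3K9me3 came from a processed transcript whose start at 82305690 lies 0.69 kb from H3K9me1 and inside H3K9me3. Counted by its coding start, Ccl1 was as unmarked as its neighbours Ccl2 to Ccl8.

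Among the other 28 chemokine ligand genes of the mouse, 13 starts (46.4%) were met by H3K9me1, 3 (10.7%) by H3K9me2 and 2 (7.14%) by H3K9me3, while 15 had no mark. The shares of all annotated genes were 21.4%, 11.5% and 12%, and the difference was not tested. Protein-coding genes of chromosome 11 stood at 37.3%, 8.3% and 6.22%, so the gap in H3K9me1 depends on the background taken. Start shares for the other chromosomes of these genes are not given here. These 28 include the 11 genes of the Cxcl cluster that are described below as a group of their own. In coordinate order, the H3K9me1 genes began with Ppbp, Pf4, Cxcl3, Cxcl2 and Cxcl9, all in the Cxcl cluster of chromosome 5. H3K9me2 met Ccl26, Ccl24 and Ccl22, and H3K9me3 met Ccl22 and Ccl1. In these counts Ccl1 is marked by H3K9me1 and H3K9me3 through its processed transcript only, and its coding start is unmarked. The 11 genes of the Cxcl cluster, home of neutrophil and T cell attractants, had H3K9me1 at 6 starts and H3K9me2 and H3K9me3 at 0. As for the Ccl genes, the shares of all annotated genes (11.5% and 12%) amount to about 1 gene of 11, so these counts of 0 are close to the background. The difference in H3K9me1, 2 of 10 against 6 of 11, was not tested because neighbouring genes share regions. The Cxcl cluster with flanks was covered to 12.6%, 6.22% and 10.6% by the marks, against 19.2%, 10.4% and 16.5% of chromosome 5. Like the Ccl window, it held unlike pieces, with H3K9me1 over 48.7% from Cxcl9 to Cxcl11, 17.6% from Cxcl5 to Cxcl2 and 1.67% at Cxcl13, each taken with 200 kb flanks. H3K9me3 covered 5.74%, 0.961% and 19.9% of these pieces.

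The 24 chemokine receptor genes had H3K9me1 at 11 starts (45.8%), H3K9me2 at 7 (29.2%) and H3K9me3 at 5 (20.8%). All annotated genes stood at 21.4%, 11.5% and 12%, and protein-coding genes of chromosome 11 at 37.3%, 8.3% and 6.22%. Most of these receptor genes lie on chromosome 9, for which start shares are not given here. The size of the gap thus depends on the background taken. The differences were not tested, since neighbouring receptor genes share regions. H3K9me1 genes began with Cxcr2, Cxcr1, Cxcr5, Ackr4 and Ccrl2. H3K9me2 genes began with Cxcr1, Ackr2, Ccr1, Ccr1l1 and Ccr3, and the H3K9me3 genes were Ackr1, Ccr1, Ccr1l1, Ccr3 and Ccr6. Of the receptors of the Ccl proteins on chromosome 9, 3 were looked at gene by gene after their calls were seen. Ccr1, which binds Ccl3, Ccl5 and others, had H3K9me2 and H3K9me3 at its start and over 75.2% and 86.6% of its body. Ccr3, the eotaxin receptor, had both marks in reach of its start, 472 bp away, and none in its body. Ccr2, the receptor of Ccl2, had H3K9me2 at one of its starts and over 12.9% of its body. H3K9me1 was called at none of these 3 receptor genes. They are neighbours on chromosome 9 and do not stand for the 24 receptor genes, among which H3K9me1 was the most frequent mark. On chromosome 9 the marks covered 19.5%, 11.4% and 13.9% of bases.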

How the data were processed

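ChIP-seq of H3K9me1, H3K9me2 and H3K9me3 and input was done in 2 samples each of wild-type MEFs. According to the study's methods and the submitters' processing notes, the authors aligned reads to mm10 (GRCm38) with BWA 0.7.1 and called enriched regions with histoneHMM. How replicates and input entered the call, and its threshold, are not given in the sources used here. The deposited lists held region coordinates only (chromosome, start, end), with no score, count or p-value, and input had no list analysed here. Starts were read as 1-based on the 750 bp grid, on which 0 regions were out of place.

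Genes and start sites were from GENCODE M21, and promoters from the RefSeq GRCm38.p6 table. A gene was met where at least 1 bp of its window or body was covered. Genes within 500 kb of each other were joined into a sub-cluster. Covered shares were over bases that are not N. No test was made, since no replicate values exist. Counts stand beside the same counts over all genes, which are descriptions.

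The genes and lists were chosen with earlier results of these data known. Named were all 10 Ccl genes. Of other protein-coding genes of the window, those with all 3 marks at the start or, where under 3 had them, with 2 marks were named, up to 5, with the nearest on either side of a sub-cluster. Up to 5 genes per list and mark were named in coordinate order, the 3 widest regions of each mark, and every region at a Ccl start. Tmem132e, Ap2b1, E230016K23Rik and the 3 receptor genes described singly were chosen after their values were seen, and 1 gene of the receptor list is not reported here. The alternatives tried changed the start windows, region width, joining of regions, start sites, overlap, coordinate reading, exons and flanks. Counting was tested on simulated regions, with 0 mismatches in 2700 direct recounts. The software was Python 3.11.15 with NumPy 2.4.6, Matplotlib 3.10.9 and SciPy 1.17.1.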

Additional observations from a re-analysis of the deposited data

How the results depend on the processing

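Of 60 alternatives, 15 moved the value and 45 did not. A count of genes was taken as moved past 1.5 times the reported count, and a covered share as moved outside its 95% Wilson interval over 750 bp bins, which treats neighbouring bins as independent and is therefore too narrow. With regions of at least 5 kb, H3K9me1 met 0 of the 10 starts and covered 0% of the Ccl gene bodies, since the regions at Ccl5 and Ccl6 are at most 3 kb wide. The same limit left 23.9% of chromosome 11 protein-coding starts with H3K9me1. Joining H3K9me1 regions up to 5 kb apart raised the covered share of gene bodies from 15.5% to 30.6%. Windows of 2 kb and 5 kb either side of a start added Ccl3, which gave 3 of 10. H3K9me2 and H3K9me3 stayed at 0 of 10 starts under all 9 start alternatives run for each. None of these could have changed the count. The nearest region lay 17.9 kb from a start for H3K9me2 and 190 kb for H3K9me3, while windows and joins reached 5 kb. The same holds for their 0% of gene bodies, so these entries among the 45 unmoved ones say nothing about robustness.

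For the cluster with flanks, H3K9me1 coverage was 6.25% with regions of at least 2 kb, 3.36% with at least 5 kb, 10.2% with joined regions, 6.35% without flanks and 13.4% with the middle left out. H3K9me2 coverage was 2.62% with regions of at least 5 kb, 2.35% without flanks, 2.91% with 500 kb flanks and 4.83% with the middle left out. H3K9me3 coverage was 15.3% without flanks, 13.6% with 100 kb flanks and 1.16% with the middle left out. No paired analysis was possible because each mark has a single list without replicate values, and leaving out replicates was not run for the same reason. Read depth cannot be read from the lists, so a start without a region may lie below what the call could detect.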
